A study of Mus musculus with 14 samples.

Results

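The genes described here code for structural proteins of the extracellular matrix (collagens, laminins, fibronectin and fibrillins), for the secreted and membrane proteases that cut it (matrix metalloproteinases and ADAMTS proteases), for the TIMP inhibitors of those proteases, and for the integrin chains by which cells hold on to it. They were chosen by symbol from the annotation of the array, and 1 probe set was kept per gene, the one with the highest mean intensity over all arrays. This gave 92 genes out of 12393 with a single symbol, measured by 156 probe sets before the choice. Of the 92, 51 were bright enough to be tested, among 8453 genes tested in all. The other 41 lay under the filter of 128.8 in mean intensity, and 11 of them were above the array background on none of the arrays. The background of an array was the 95th percentile of its 27 bacterial control probe sets.

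The samples were total RNA of mouse liver. Partial hepatectomy (PHx) removes part of the liver, and the remnant then grows back. It was followed at 6 times, with 2 arrays each at 4, 8, 12, 36, 48 and 72 h after PHx, and 2 arrays of normal liver served as the reference (14 arrays in all). The strain, sex and age of the mice are not given in the sources used here. Livers of 4 to 6 mice were pooled for an RNA extraction, per the design text. Whether both arrays of 1 group stand for different pools of mice is not stated, so the p-values measure the spread between these arrays, which may be technical.

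Several arrays stood apart before any matrix gene was considered. Replicate 2 of the 8, 12, 36 and 72 h groups had a pyruvate carboxylase control with a ratio of 5′ to 3′ signal of 0.0909 to 0.137, while the other 10 arrays had 0.305 to 0.584. Summed intensities of 11 pancreatic acinar markers were 1121 to 2131 on the normal arrays, 39726 to 39739 at 4 h, 267595 to 288869 at 8 h and 1992 to 4638 at 12 h. At 36 h this sum was 1130.5 on replicate 1 and 44947 on replicate 2, and at 48 and 72 h it lay between 1606 and 2772. The sums of 13 skeletal muscle markers were 533.1 to 955.0 on the normal arrays, 18978 to 20843 at 4 h, 11812 to 12864 at 8 h and 2274 to 2834 at 12 h. At 36 h the muscle sum was 745.5 on replicate 1 and 3422 on replicate 2, and at 48 and 72 h it lay between 764.2 and 1310. All 8 hepatocyte markers on the array were above background on all 14 arrays. Their sum was 342590 to 450306 on the normal arrays, 352491 to 451339 at 4 h, 310248 to 336653 at 8 h, 307053 to 359629 at 12 h, 247809 to 259708 at 36 h, 218568 to 361492 at 48 h and 292616 to 317526 at 72 h. From 8 h on 0 of the 8 had a change above 0, none was called against normal liver at any time, and at 36 h their median was -0.63 with 6 of 8 at an unadjusted p under 0.05 in limma. In bulk RNA of this kind, fewer cells of a type and less RNA per cell cannot be told apart, which holds for every value below.

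The matrix of the liver is sparse. A loose basement membrane-like layer of type IV collagen, laminin, nidogen and the heparan sulphate proteoglycans lies along the sinusoids, fibrillar collagens of types I, III and V are concentrated around portal tracts and central veins, and fibronectin is made in quantity by hepatocytes. Stellate cells, portal fibroblasts and sinusoidal endothelial cells make most of the collagen. Metalloproteinases are secreted as inactive precursors, MMP14 on the cell surface activates MMP2 together with TIMP2, and TIMP proteins block the active enzymes. Integrins are pairs of an alpha and a beta chain that link matrix outside the cell to actin inside it.

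To show what lies upstream of the genes with the lowest F-test p over the course, 120 bases before the start of 5 of the 6 genes called by the F test below are printed from the RefSeq promoter table of build GRCm38.p6, 5′ to 3′ on the gene's own strand. Col4a1, the remaining one, is not shown because the bases before its start lie inside its neighbour Col4a2. Capitals mark TATAAA (the letters of a TATA box) and CCGCCC or its reverse complement GGGCGG (the letters of an Sp1 site). The stretches are chrX:20870046-20870165 on the plus strand for Timp1, chr16:85803114-85803233 on the minus strand for Adamts1, chr1:45311418-45311537 on the plus strand for Col3a1, chr14:54431478-54431597 on the plus strand for Mmp14 and chr10:86300292-86300411 on the plus strand for Timp3.
Timp1: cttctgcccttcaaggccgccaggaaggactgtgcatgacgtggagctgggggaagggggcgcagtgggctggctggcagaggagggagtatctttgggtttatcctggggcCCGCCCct
Adamts1: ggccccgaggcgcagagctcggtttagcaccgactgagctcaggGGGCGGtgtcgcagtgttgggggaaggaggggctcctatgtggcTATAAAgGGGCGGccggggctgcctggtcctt
Col3a1: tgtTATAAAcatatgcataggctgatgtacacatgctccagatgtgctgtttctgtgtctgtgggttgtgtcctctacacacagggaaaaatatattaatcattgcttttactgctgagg
Mmp14: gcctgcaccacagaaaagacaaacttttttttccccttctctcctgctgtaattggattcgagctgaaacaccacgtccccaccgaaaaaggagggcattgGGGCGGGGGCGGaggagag
Timp3: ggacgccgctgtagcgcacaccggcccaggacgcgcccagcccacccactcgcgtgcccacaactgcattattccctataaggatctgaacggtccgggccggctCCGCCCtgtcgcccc

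The letters differ between these genes. Over the whole window of 300 bases (250 before the start and 50 after it), TATAAA was present for 2 of the 6 genes, Adamts1 at 32 to 27 bases before the start and Col3a1 at 117 to 112 bases before it. CCGCCC on either strand was present for 5 of the 6, and the AP-1 letters TGANTCA were in none of the 6 windows. Among 27025 genes of the promoter table the shares with these letters were 15.7%, 38.2% and 8.97% in that order. Of the 51 tested matrix genes 33 have a window in that table, and TATAAA was in 4 of these (12.1%), CCGCCC in 25 (75.8%) and TGANTCA in 3 (9.09%). Both strands were searched, and no match of one of these motifs overlapped a match of another. A match of letters is a description of the sequence and not evidence that a factor binds there.

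More matrix genes were higher after PHx than lower. Their calls were most numerous at 8 and 12 h, as were the calls among all probe sets tested. A gene was called at an adjusted p under 0.05 in the fit of all 13576 probe sets. At 4 h, 4 of 51 were higher and 0 lower, where 1.6% of all probe sets tested were higher, 0.825% lower and 2.42% called in either direction. At 8 h, 6 were higher and 1 lower, beside 4.87% higher and 4.72% lower of all probe sets (9.59% together). At 12 h, 7 were higher and 1 lower, beside 5.98% and 6.22%. At 36 h, 3 were higher and 0 lower, beside 2.28% and 1.89% (4.17% together). At 48 h, 1 was higher and 0 lower, beside 1.64% and 0.685% (2.32% together). At 72 h, 2 were higher and 0 lower, beside 1.62% and 0.869% (2.49% together). The share of matrix genes called higher lay above that of all probe sets at each time and the share called lower lay below it, which is a description and no test. At an unadjusted p under 0.05 in limma, 9, 13, 18, 11, 9 and 8 of the 51 genes differed at the 6 times. The share of all probe sets under that threshold was not counted, so these numbers cannot be read against a background. The 12 h calls were 8 of 51 in either direction, where 12.2% of all probe sets were called, which is near that background. The F test over all 6 times called 6 of 51 (Timp1, Col3a1, Col4a1, Adamts1, Mmp14 and Timp3), near the 13.1% of all probe sets that it called.

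Changes are given on the log2(intensity + 57) scale, which understates the change of dim genes. The median change of the 51 genes was 0.28, 0.39, 0.43, 0.19, 0.30 and 0.27 at 4, 8, 12, 36, 48 and 72 h, and that of all probe sets tested was -0.00, 0.09, 0.12, 0.07, 0.12 and 0.11. The change was above 0 for 45, 41, 39, 31, 41 and 41 of the 51 genes at these times. The share of all probe sets with a change above 0 was not counted, so these counts have no background beside them. The median of all probe sets was itself above 0 from 8 h on. All 6 comparisons use the same pair of normal arrays, so they are not independent of one another. Normal replicate 2 had the lowest median intensity of the series (127.8), and its omission lowered the calls to 0 at 4 h (5 at an unadjusted p under 0.05 in limma), 2 at 8 h, 4 at 12 h, and 1 each at 36 and 72 h. Omitting normal replicate 1 gave 12, 15, 1 and 6 calls at 8, 12, 36 and 48 h. Omitting either array of the group itself left 0 calls at 4 h (8 unadjusted without replicate 1 and 7 without replicate 2), 2 at 8 h and 1 at 72 h, and omitting 36 h replicate 2 left 1 at 36 h. Without either 12 h array 5 genes were called at 36 h and 2 at 48 h, and without 48 h replicate 2 there were 2 at 48 h. Without the 4 arrays of low 5′ signal 2 genes were called at 8 h, 4 at 12 h, 0 at 36 h (9 unadjusted) and 1 at 72 h. Without the 4 and 8 h arrays, where acinar and muscle sums were raised on both replicates, but with 36 h replicate 2 kept, 7 were called at 12 h and 1 each at 36, 48 and 72 h. A fit of only the 4 arrays compared called 4 genes at 8 h, 1 at 12 h, 0 at 36 h (11 unadjusted), 0 at 48 h (4 unadjusted) and 1 at 72 h, and with it the 12 h calls of Col3a1, Col4a1 and Adamts1 and the 36 and 48 h calls of Timp1 were lost.

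**Figure D1:**
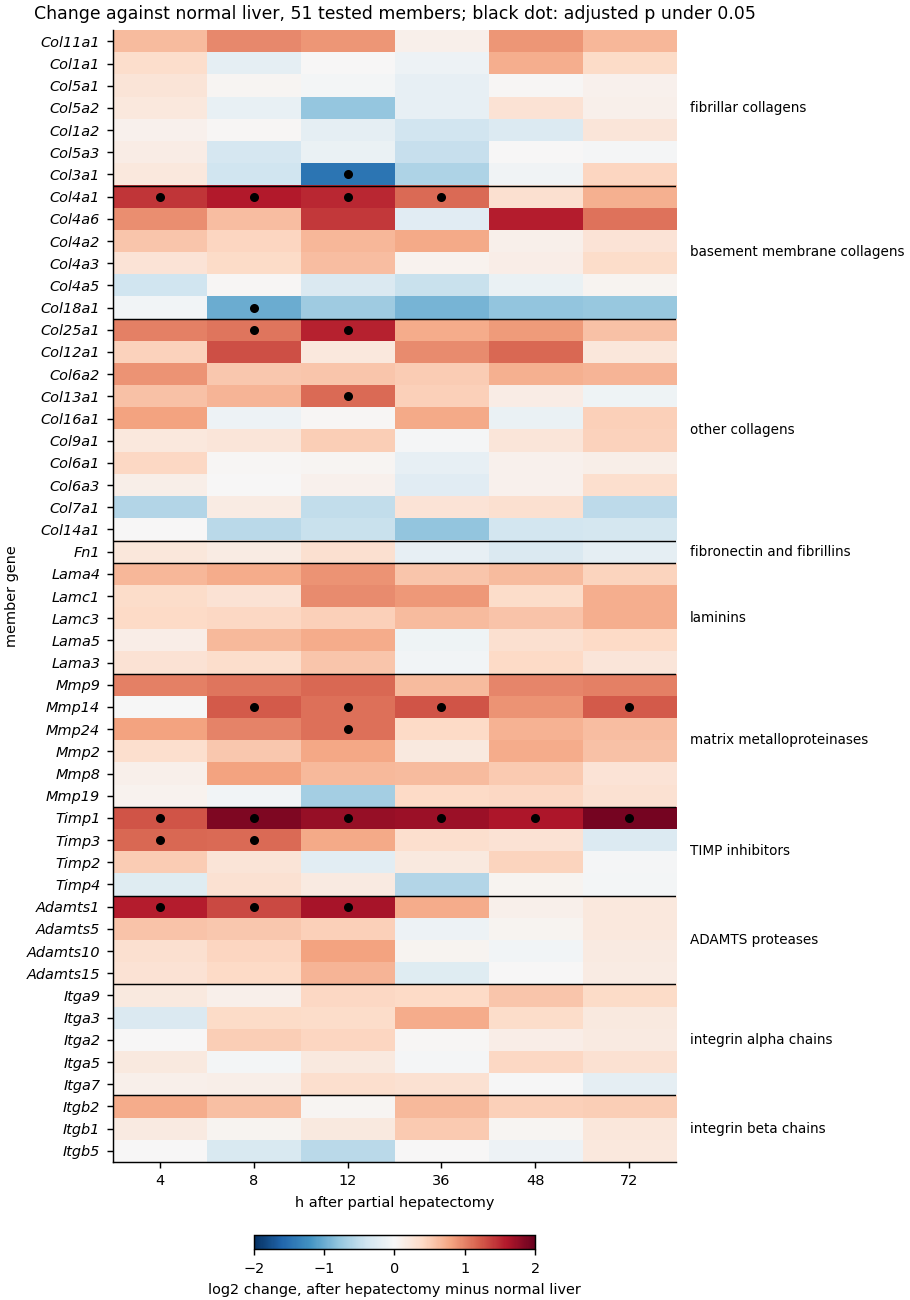
Log2 change against normal liver of the 51 tested matrix genes (rows, by role) at 4, 8, 12, 36, 48 and 72 h after PHx (columns). Red is higher after PHx and blue lower, and a black dot marks an adjusted p under 0.05; Timp1 carries a dot at all 6 times, and the integrin and laminin rows carry none.

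Fibrillar collagens form the banded fibres of portal tracts and scars. Of 7 tested, 1 was called at any time. Col3a1, the chain of type III collagen, was lower at 12 h. Its intensity was 1188.6 and 1312.5 on the normal arrays, 1446.3 and 1473.2 at 4 h, 956.1 and 919.2 at 8 h, 448.1 and 390.8 at 12 h, 697.7 and 902.4 at 36 h, 1096.6 and 1288.9 at 48 h, and 1620.6 and 1790.9 at 72 h. Both 12 h arrays lay below every other array of the series, and both 72 h arrays above every other. The change fell by 1.46 in log2 at 12 h (SE 0.21, adjusted p = 0.00128), and it was -0.62 (adjusted p = 0.135) at 36 h and 0.43 (adjusted p = 0.362) at 72 h. The 12 h call held without any 1 array, but not in the mean of the 2 Col3a1 probe sets (-0.71, adjusted p = 0.0522), of which the second was dim (mean 108.6) and not tested alone.

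The other fibrillar chains were not called on their brightest probe set. Col5a2, a chain of type V collagen and the gene next to Col3a1 in the order of GRCm38.p6, had 147.7 and 83.9 at 12 h, against 249.1 and 217.5 on the normal arrays (-0.77, SE 0.23, adjusted p = 0.0512). For Col1a2, the second chain of type I collagen, changes ran between -0.38 at 36 h and 0.25 at 72 h, and the 95% interval at 36 h ran from -0.97 to 0.21. A second Col1a2 probe set differed in sign at 8 h (-0.31 beside 0.02) and at 36 h (0.16). It gave 0.64 at 72 h (adjusted p = 0.225), with no call at any time. The brightest probe set of Col1a1, the main chain of type I collagen, gave 134.1 to 541.0 over the series with a spread between arrays of one group as large as its changes (0.00 at 12 h, SE 0.45). A second Col1a1 probe set behaved otherwise: it read 137.9 and 194.4 on the normal arrays, 406.7 and 355.9 at 4 h, 188.2 and 177.2 at 8 h, 26.7 and 24.8 at 12 h, 112.9 and 203.4 at 36 h, 179.2 and 416.0 at 48 h, and 421.9 and 503.4 at 72 h. On that probe set the level was lower at 12 h (-1.42, SE 0.32, adjusted p = 0.0135), with both 12 h arrays below background, and the 72 h change was 1.23 (adjusted p = 0.0699).

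Basement membrane collagens moved in both directions. Col4a1, a chain of the type IV collagen network, had 585.0 and 579.3 on the normal arrays, 1759.2 and 1581.2 at 4 h, 1924.5 and 1814.2 at 8 h, 1553.5 and 1979.8 at 12 h, 1188.4 and 1521.4 at 36 h, 771.0 and 715.4 at 48 h, and 797.4 and 1212.5 at 72 h. Every array after PHx lay above both normal arrays, and the 4, 8 and 12 h arrays were the highest. Col4a1 rose by 1.43 in log2 at 4 h (SE 0.24, adjusted p = 0.00957), 1.59 at 8 h (adjusted p = 0.00192), 1.50 at 12 h (adjusted p = 0.00239) and 1.13 at 36 h (adjusted p = 0.0222). It was 0.32 above normal at 48 h (adjusted p = 0.574) and 0.70 at 72 h (adjusted p = 0.183), where the test was not passed. A second Col4a1 probe set was called at the same 4 times, with changes of 1.33, 1.67, 1.18 and 1.23.

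The 8 and 12 h calls of Col4a1 held without any 1 array. The 4 h call was lost without normal replicate 2 (1.43), 4 h replicate 1 (1.36) or 4 h replicate 2 (1.51), and the 36 h call without normal replicate 1 (1.14), normal replicate 2 (1.13) or 36 h replicate 2 (0.96). Without the 4 arrays of low 5′ signal the 36 h call was lost as well.

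Col4a2 is the partner chain of Col4a1 in the type IV trimer. Both genes are neighbours on chromosome 8, and their annotated spans overlap (11198423 to 11312889 for Col4a1 and 11312805 to 11449287 for Col4a2). Col4a2 had 817.1 and 653.9 at 4 h, 791.0 and 562.0 at 8 h, 716.7 and 878.0 at 12 h and 791.6 and 910.7 at 36 h, against 432.9 and 535.1 on the normal arrays. All these arrays lay above both normal arrays, yet the gene was called at none of the 6 times. Its changes were 0.55 at 4 h, 0.43 at 8 h, 0.66 at 12 h (adjusted p = 0.099, 95% interval 0.13 to 1.19) and 0.75 at 36 h (adjusted p = 0.12, 95% interval 0.22 to 1.28), each smaller than that of Col4a1. The difference between both genes was not tested.

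Col18a1, a collagen of vascular and sinusoidal basement membranes whose end fragment is endostatin, was the member that fell at 8 h. It had 7579.1 and 9276.0 on the normal arrays, 8178.4 and 7916.2 at 4 h, 4613.1 and 3790.4 at 8 h, 4097.1 and 6383.9 at 12 h, 4390.5 and 4355.3 at 36 h, 4035.4 and 5809.6 at 48 h, and 4599.9 and 5315.4 at 72 h. Every array from 8 h on lay below the normal and 4 h arrays. At 8 h Col18a1 fell by 0.99 in log2 (SE 0.27, adjusted p = 0.0355). From 12 to 72 h its changes were -0.71 (adjusted p = 0.102), -0.93 (adjusted p = 0.0731), -0.78 (adjusted p = 0.191) and -0.76 (adjusted p = 0.194). A second Col18a1 probe set was lower at 8 h (-1.51, SE 0.32, adjusted p = 0.0125) and 12 h (-1.39, adjusted p = 0.0162). The 8 h call on the brighter probe set was lost without normal replicate 2 (-0.85), 8 h replicate 1 (-1.13) or 8 h replicate 2 (-0.85), and without any 1 array of the 4, 36 or 72 h groups, which left the change at -0.99 with an adjusted p of 0.0502 to 0.0559. It was also lost without the 4 arrays of low 5′ signal (-0.85, adjusted p = 0.252), with no filter (-0.99, adjusted p = 0.0541) and in a fit of only the arrays compared.

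Among 10 tested collagens of other types, Col25a1 and Col13a1 were called. Both are membrane-bound collagens, and Col25a1 is best known from neurons. Col25a1 had 301.1 and 140.1 on the normal arrays, 486.5 and 462.5 at 4 h, 481.1 and 522.9 at 8 h, 583.7 and 871.7 at 12 h, 367.4 and 403.8 at 36 h, 510.9 and 349.2 at 48 h, and 295.3 and 393.3 at 72 h. Both 12 h arrays were the highest of the series. Col25a1 rose by 1.07 in log2 at 8 h (SE 0.30, adjusted p = 0.0462) and 1.54 at 12 h (adjusted p = 0.00745). Normal replicate 2 carried much of this: without it the changes were 0.64 at 8 h (adjusted p = 0.361) and 1.11 at 12 h (adjusted p = 0.0779). The 8 h call was also lost without 8 h replicate 1 (1.13), without 8 h replicate 2 (1.02), and without any 1 array of the 4, 36 or 72 h groups (1.07, adjusted p 0.0592 to 0.0691), and in 6 of 12 other settings, among them without the 4 arrays of low 5′ signal (1.02, adjusted p = 0.27). At 12 h that last setting also ended the call (1.27, adjusted p = 0.145).

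Col13a1 had 168.7 and 101.1 on the normal arrays, 193.2 and 261.4 at 4 h, 234.9 and 259.3 at 8 h, 471.4 and 266.9 at 12 h, 193.7 and 217.3 at 36 h, 176.2 and 131.4 at 48 h, and 86.6 and 162.7 at 72 h. Replicate 1 at 12 h stood above all other arrays. Col13a1 rose by 1.13 in log2 at 12 h (SE 0.30, adjusted p = 0.0308). The call was lost without 12 h replicate 1 (0.78, adjusted p = 0.148) or normal replicate 2 (0.87, adjusted p = 0.224), and in 7 of 12 other settings, among them array weights (1.13, adjusted p = 0.117) and quantile normalization (0.93, adjusted p = 0.0538).

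Fibronectin and the laminins were not called on their brightest probe sets. Fn1, the soluble and matrix fibronectin that hepatocytes secrete, ranged between 10853.8 and 24137.0 over the series. Its changes were 0.23, 0.16, 0.32, -0.16, -0.29 and -0.17 at the 6 times, with an SE of 0.25, and the 12 h interval ran from -0.23 to 0.87. A second Fn1 probe set was higher at 12 h, with 403.3 and 652.0 against 180.4 and 147.5 on the normal arrays (1.37, SE 0.27, adjusted p = 0.00638). Probe sets of 1 gene can read different transcript ends or variants, and which applies here was not tested. None of the 5 tested laminin chains was called, although their median change was 0.36, 0.41, 0.75, 0.55, 0.40 and 0.45. Lamc1, the gamma chain common to most laminins, had 256.3 and 554.6 at 12 h and 362.7 and 351.1 at 36 h, against 178.6 and 161.5 on the normal arrays. Its changes were 0.95 at 12 h (SE 0.30, adjusted p = 0.0599) and 0.87 at 36 h (adjusted p = 0.143). Lama4, the laminin alpha chain of vascular walls, gave 0.90 at 12 h (SE 0.28, adjusted p = 0.0567). Lamb1, a beta chain, was under the filter with intensities of 17.0 to 132.8.

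Among 6 tested matrix metalloproteinases, Mmp14 and Mmp24 were called, both of them membrane-type enzymes. Mmp14 activates MMP2 and cuts fibrillar collagen at the cell surface. It had 441.4 and 448.2 on the normal arrays, 448.5 and 440.6 at 4 h, 1137.2 and 1105.3 at 8 h, 1319.7 and 790.2 at 12 h, 1197.0 and 1080.1 at 36 h, 749.2 and 1032.9 at 48 h, and 1020.3 and 1225.5 at 72 h. The 4 h arrays sat at the normal level, and every array from 8 h on lay above both. Mmp14 rose by 1.23 in log2 at 8 h (SE 0.26, adjusted p = 0.0109), 1.11 at 12 h (adjusted p = 0.0162), 1.25 at 36 h (adjusted p = 0.0178) and 1.23 at 72 h (adjusted p = 0.0252). At 48 h the change was 0.90 (adjusted p = 0.113), and at 4 h it was -0.00 (adjusted p = 0.999).

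A second Mmp14 probe set had changes of 0.71, 0.59, 0.78, 0.66 and 0.62 from 8 to 72 h, none of them called, with an SE of 0.48, and -0.68 at 4 h. In the mean of both Mmp14 probe sets the calls at 8, 12, 36 and 72 h were lost (0.97, 0.85, 1.02 and 0.92). The calls also depended on both arrays of a side. Without normal replicate 2 the changes were 1.24, 1.12, 1.26 and 1.24 at 8, 12, 36 and 72 h, without normal replicate 1 they were 1.24 and 1.22 at 36 and 72 h, and none of these passed. At 8, 12, 36 and 72 h the changes without replicate 1 of the group itself were 1.21, 0.76, 1.18 and 1.35. At 8, 36 and 72 h those without replicate 2 were 1.25, 1.32 and 1.10, again with no call. Without the 4 arrays of low 5′ signal the Mmp14 calls at 8, 36 and 72 h were lost too.

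Mmp24, known mainly from the nervous system, had 297.7 and 141.8 on the normal arrays, 306.8 and 534.2 at 4 h, 408.3 and 544.8 at 8 h, 518.5 and 503.6 at 12 h, 271.9 and 313.6 at 36 h, 342.0 and 407.9 at 48 h, and 339.2 and 359.3 at 72 h. It rose by 1.10 in log2 at 12 h (SE 0.30, adjusted p = 0.036). The call was lost without normal replicate 2 (0.68, adjusted p = 0.294), 12 h replicate 1 (1.08), 12 h replicate 2 (1.12) or either 72 h array (1.10, adjusted p = 0.0513), and in 5 of 13 other settings, among them without the 4 arrays of low 5′ signal (1.12, adjusted p = 0.221).

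The gelatinases, which cut denatured and type IV collagen, did not pass the test. Mmp2 had 363.8 and 440.2 at 12 h, against 191.1 and 229.7 on the normal arrays, a change of 0.78 (SE 0.26, adjusted p = 0.0724, 95% interval 0.21 to 1.35). A second Mmp2 probe set went the other way at 12 h, with 137.5 and 241.1 against 288.2 and 234.3 on the normal arrays (-0.40, adjusted p = 0.328). Its change was 0.17 at 4 h and below 0 from 8 to 72 h, with no call. Mmp9 had 212.1 and 15.8 on the normal arrays, so that its changes of 0.63 to 1.15 had an SE of 0.55. Mmp13, the main interstitial collagenase of mice, was above background on none of the arrays, with intensities of 1.3 to 49.6. Of 18 metalloproteinases on the array, 12 were under the filter. Mmp13, Mmp12, Mmp1b, Mmp3, Mmp1a, Mmp10 and Mmp8 follow each other in the gene order of GRCm38.p6, and of this run Mmp8, a neutrophil collagenase, was the 1 tested gene (0.80 at 8 h, SE 0.36, adjusted p = 0.191).

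Of the TIMP inhibitors, which bind active metalloproteinases, Timp1 and Timp3 were called and Timp2 and Timp4 were not. Timp1 was the member with the lowest F-test p (adjusted p = 0.00092). It had 59.7 and 51.2 on the normal arrays, 208.6 and 212.6 at 4 h, 353.0 and 352.7 at 8 h, 330.3 and 309.4 at 12 h, 245.8 and 385.7 at 36 h, 295.1 and 277.8 at 48 h, and 353.4 and 376.6 at 72 h. All 12 arrays after PHx lay far above both normal arrays, and 1 of the 2 normal arrays was above background. Timp1 rose by 1.25 in log2 at 4 h (SE 0.22, adjusted p = 0.0114), 1.87 at 8 h (adjusted p = 0.000387), 1.75 at 12 h (adjusted p = 0.000632), 1.70 at 36 h (adjusted p = 0.00134), 1.61 at 48 h (adjusted p = 0.00147) and 1.91 at 72 h (adjusted p = 0.000476). The calls from 8 to 72 h held without any 1 array; the 4 h call was lost without normal replicate 2 (1.20), 4 h replicate 1 (1.26) or 4 h replicate 2 (1.24), and the 36 h call without the 4 arrays of low 5′ signal (1.43, adjusted p = 0.0951).

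Timp3 stays bound to the matrix and also inhibits ADAM and ADAMTS proteases. It had 333.7 and 196.6 on the normal arrays, 587.7 and 692.5 at 4 h, 665.5 and 606.8 at 8 h, 445.9 and 509.5 at 12 h, 338.8 and 346.1 at 36 h, 307.0 and 353.5 at 48 h, and 150.9 and 269.3 at 72 h. The 4 and 8 h arrays were the highest and the 72 h arrays among the lowest. Timp3 rose by 1.14 at 4 h (SE 0.27, adjusted p = 0.0489) and 1.14 at 8 h (adjusted p = 0.021). Its change was 0.76 at 12 h (adjusted p = 0.0856) and -0.27 at 72 h (adjusted p = 0.663). At 4 and 8 h both other tested Timp3 probe sets had the same sign and no call, with 0.56 and 0.34 at 4 h and 0.92 and 0.27 at 8 h. Later they parted, with 0.40 and -0.31 at 36 h, 0.54 and -0.39 at 48 h and 0.62 and -0.25 at 72 h, none of them called. The brightest probe set gave 0.34 at 36 h and 0.30 at 48 h. The 4 h call was lost in 7 of 12 other settings. It was also lost without normal replicate 2 (0.83), 4 h replicate 1 (1.25) or 4 h replicate 2 (1.03), and without any 1 array of the 8, 36 or 48 h groups (1.14, adjusted p 0.0628 to 0.0774). The 8 h call was lost without normal replicate 2 (0.83), 8 h replicate 1 (1.08) or 8 h replicate 2 (1.20), and without the 4 arrays of low 5′ signal.

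Timp2, the partner of MMP14 in activating MMP2, had changes of 0.50, 0.26, -0.22, 0.19, 0.45 and -0.03 over the course, with an SE of 0.29. Timp4 gave -0.59 at 36 h to 0.31 at 8 h, with an SE of 0.47.

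ADAMTS proteases cut proteoglycans such as versican and aggrecan. Adamts1 was the 1 called among 4 tested. It had 235.5 and 216.9 on the normal arrays, 798.9 and 760.9 at 4 h, 567.3 and 751.7 at 8 h, 567.3 and 1192.6 at 12 h, 340.4 and 503.4 at 36 h, 236.0 and 257.2 at 48 h, and 292.8 and 247.0 at 72 h. It was high on all 6 early arrays and back near the normal level at 48 and 72 h. Adamts1 rose by 1.56 in log2 at 4 h (SE 0.31, adjusted p = 0.0202), 1.33 at 8 h (adjusted p = 0.0186) and 1.64 at 12 h (adjusted p = 0.0054). At 36 h its change was 0.74 (adjusted p = 0.221), and at 48 h 0.10 (adjusted p = 0.908). The 12 h call held without any 1 array, but not without the 4 arrays of low 5′ signal (1.14, adjusted p = 0.0681). At 4 h it was lost without normal replicate 1 (1.61), normal replicate 2 (1.52), 4 h replicate 1 (1.53) or 4 h replicate 2 (1.60), and at 8 h without normal replicate 2 (1.28), 8 h replicate 1 (1.51) or 8 h replicate 2 (1.14). The 8 h call of Adamts1 was also lost without the 4 arrays of low 5′ signal. Its neighbour Adamts5, an aggrecanase, had changes of 0.57, 0.53 and 0.48 at 4, 8 and 12 h, with no call.

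**Figure D2:**
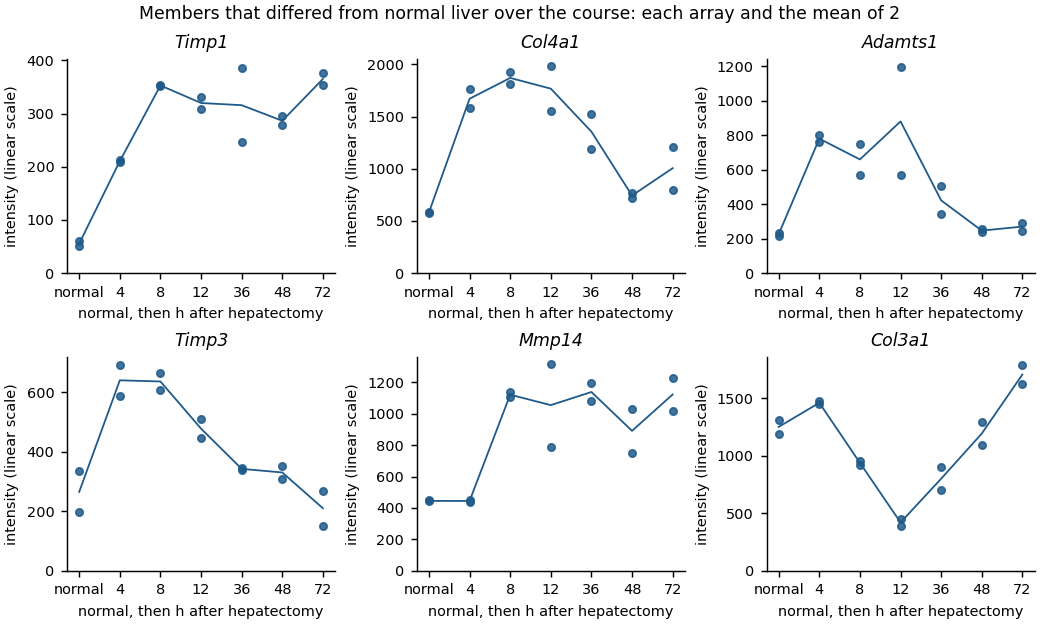
Intensity (linear scale) of the 6 matrix genes called by the F test over the course, 1 point per array with a line through the mean of 2, for normal liver and then 4, 8, 12, 36, 48 and 72 h after PHx. At 72 h the arrays of every gene but Timp3 lie above both normal arrays, Col4a1, Adamts1 and Timp3 are highest in the first 12 h, and Col3a1 is lowest at 12 h (448.1 and 390.8).

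None of 8 tested integrin chains was called against normal liver on its brightest probe set. Itgb1, the beta chain shared by most collagen, laminin and fibronectin receptors, had changes of 0.18, 0.05, 0.19, 0.52, 0.04 and 0.23, the highest of them at 36 h (95% interval -0.19 to 1.24). Itga5, the alpha chain of the classical fibronectin receptor, had changes of -0.03 at 8 and 36 h to 0.41 at 48 h. A second Itga5 probe set gave -1.06 at 4 h (SE 0.30, adjusted p = 0.0943), where the brightest gave 0.19. Itgb2, the beta chain of leukocyte integrins, gave 0.75 at 4 h (SE 0.35, adjusted p = 0.374). Fbn1, Itga1 and Itgav were not analysed here, and Itga6, part of laminin receptors, was under the filter with 6.6 to 140.0.

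Itgb5, which pairs with the alpha V chain to bind vitronectin, was called on further probe sets but not on its brightest. Its brightest probe set had 992.9 and 1319.5 at 8 h and 1081.4 and 852.5 at 12 h, against 1717.6 and 1175.1 on the normal arrays, with changes of -0.30 (SE 0.28, adjusted p = 0.529) and -0.54 (adjusted p = 0.218). The next probe set had 689.8 and 957.6 at 8 h and 750.3 and 601.2 at 12 h, against 1675.9 and 1834.8 on the normal arrays, and was called lower at both times (-1.06, SE 0.23, adjusted p = 0.0127, and -1.31, adjusted p = 0.00347). The third had 117.0 and 65.0 at 8 h and 290.3 and 56.6 at 12 h, against 580.9 and 827.7 on the normal arrays (-2.37, SE 0.41, adjusted p = 0.00388, and -1.92, adjusted p = 0.0107). Replicate 2 of both times was below the background of its array, so these sizes are uncertain. The fourth gave -1.36 (SE 0.34, adjusted p = 0.0288) and -1.70 (adjusted p = 0.0085), with 12 h replicate 2 (54.1) below background. From 36 h on all 4 had changes between -0.49 and 0.21, with no call. The probe sets thus share a sign at 8 and 12 h, and 3 of 4 passed. Whether they differ from each other was not tested.

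In all, the members have 64 further probe sets, of which 22 were bright enough to be tested. For the 12 called changes against normal liver whose gene has such a probe set, the further probe sets had the same sign in all 12, and 1 was itself called in 5. All 12 belong to Col4a1, Mmp14, Timp3, Col18a1 and Mmp24, and the 5 are the 4 calls of Col4a1 and the 8 h call of Col18a1. They share 1 pair of normal arrays, so they are not independent of one another.

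**Figure D3:**
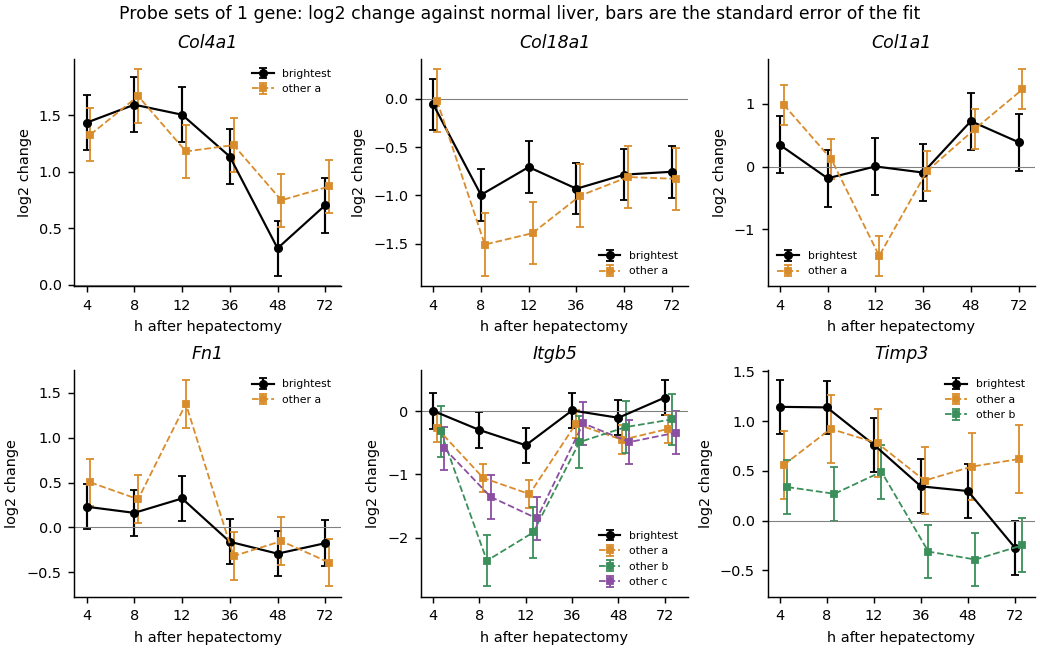
Log2 change against normal liver (bars are the standard error of the fit) at 4, 8, 12, 36, 48 and 72 h after PHx for 6 genes with several tested probe sets, the brightest in black and the others in colour. The Col4a1 probe sets run together, while Col1a1 and Fn1 part at 12 h and 3 of the 4 Itgb5 probe sets fall at 8 and 12 h.

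The late arrays (36, 48 and 72 h) were also set against the early ones (4, 8 and 12 h), a comparison that does not use normal liver. Of 51 genes, 1 was higher late and 4 were lower late, beside 9.92% of all probe sets higher and 5.96% lower. The share called lower, 4 of 51, is not far from that background. Adamts1 was lower late (-1.16, SE 0.18, adjusted p = 0.000887), as were Timp3 (-0.89, SE 0.16, adjusted p = 0.00218) and Col4a1 (-0.79, SE 0.14, adjusted p = 0.00243), and these calls held without any 1 array. Col13a1 was lower late as well (-0.62, SE 0.17, adjusted p = 0.0312), and Col3a1 was higher late (0.46, SE 0.12, adjusted p = 0.0231), although late and early arrays overlapped for both. Timp1 gave 0.12 (adjusted p = 0.592) and Mmp14 0.35 (adjusted p = 0.142), so neither passed. The count fell to 3 without 4 h replicate 2, either 8 h array or 36 h replicate 2, and was 8 without 12 h replicate 1. Among further probe sets, the second of Fn1 (-1.02, adjusted p = 0.000811), the second of Col4a1 (-0.44, adjusted p = 0.0455) and 1 of Timp3 (-0.68, adjusted p = 0.0108) were lower late. The other further Timp3 probe set that was tested gave -0.23 (adjusted p = 0.495). Further probe sets of Col1a1 (0.69, adjusted p = 0.0237), Itga5 (1.06, adjusted p = 0.00132), Mmp19 (0.79, adjusted p = 0.0159) and 3 of Itgb5 (0.57, 1.25 and 0.87) were higher late.

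The Col13a1 call was lost without 4 h replicate 2 (-0.56), 8 h replicate 1 (-0.64) or 2 (-0.60), 12 h replicate 1 (-0.50), 36 h replicate 1 (-0.60) or 2 (-0.64), 48 h replicate 2 (-0.57) or 72 h replicate 1 (-0.52). That of Col3a1 was lost without 4 h replicate 1 (0.46) or 2 (0.46), 8 h replicate 1 (0.47) or 2 (0.45), 36 h replicate 2 (0.40), 48 h replicate 2 (0.42) or 72 h replicate 2 (0.44). Without the 4 arrays of low 5′ signal Col3a1 gave 0.34 (adjusted p = 0.361), in the mean of its probe sets 0.33 (adjusted p = 0.107), and Col13a1 gave -0.84 (adjusted p = 0.0636) without those arrays.

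Genes that build, cross-link or sense the matrix were read from lists with no member in common with the set above. Among 20 tested glycoproteins and proteoglycans, 2 were called higher at 8 h, where 4.87% of all probe sets were, and 1 each at 12 and 36 h, beside 5.98% and 2.28%. Nid1, nidogen, which ties laminin to type IV collagen, had 1029.9 and 858.0 at 8 h, 727.2 and 2426.7 at 12 h and 1668.7 and 1482.5 at 36 h, against 278.8 and 229.9 on the normal arrays. It rose by 1.68 at 8 h (SE 0.45, adjusted p = 0.0361), 2.17 at 12 h (adjusted p = 0.00984) and 2.39 at 36 h (adjusted p = 0.0112). At 4 h, with 379.1 and 363.6, it had a change of 0.46 (adjusted p = 0.722). Thbs1, thrombospondin, an activator of latent TGF-beta, had 331.1 and 300.5 at 8 h, against 162.4 and 78.9 on the normal arrays (1.11, SE 0.31, adjusted p = 0.0427). Ecm1, a matrix protein made in quantity by stellate cells, was lower late than early (-0.67, SE 0.11, adjusted p = 0.00189).

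Of 12 tested genes of collagen processing and cross-linking, 1 was higher at 4 h, and 1 was higher and 1 lower at 8 and at 12 h. Of all probe sets, 2.42%, 9.59% and 12.2% were called in either direction at these times. Tgm2, transglutaminase 2, which cross-links matrix proteins, had 2295.9 and 3166.4 on the normal arrays, 7107.0 and 6996.2 at 4 h, 9695.4 and 8520.4 at 8 h, 10361.1 and 12827.8 at 12 h, 5420.1 and 5368.8 at 36 h, 3979.6 and 6259.6 at 48 h, and 5443.2 and 5061.1 at 72 h. It rose by 1.37 at 4 h (SE 0.26, adjusted p = 0.0161), 1.73 at 8 h (adjusted p = 0.00159) and 2.07 at 12 h (adjusted p = 0.000571). Bmp1, the protease that trims fibrillar procollagen, had 666.7 and 541.5 at 8 h and 542.4 and 536.6 at 12 h, against 1291.7 and 1538.0 on the normal arrays. It fell by 1.16 at 8 h (SE 0.22, adjusted p = 0.00627) and by 1.30 at 12 h (adjusted p = 0.00285).

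The other lists are given beside the share of all probe sets, which was 12.2% called at 12 h. Of 10 ADAM proteases, cathepsins and other protease regulators, 1 was called at 12 h, which is near that share. It was Ctsl, a lysosomal and secreted protease (0.81, SE 0.22, adjusted p = 0.0335). Of 16 genes of integrin adhesion sites, 1 was higher and 1 lower at 12 h, again near it. These were Zyx, zyxin of focal adhesions (0.97, SE 0.26, adjusted p = 0.0311), and Fermt2, kindlin-2, an integrin activator (-1.05, SE 0.26, adjusted p = 0.021). In the late against early comparison Dag1, dystroglycan, was higher late (0.54, adjusted p = 0.0246) and Sdc4, syndecan-4, lower late (-1.24, SE 0.21, adjusted p = 0.00185). Of 7 tested regulators of matrix genes 1 was called at 8 h, beside 9.59% of all probe sets, and 2 at 12 h, beside 12.2%. Skil, a repressor of SMAD signalling, rose by 1.34 at 8 h (SE 0.37, adjusted p = 0.0388) and 1.69 at 12 h (adjusted p = 0.0119). Tgfbr1, the type I TGF-beta receptor, rose by 1.21 at 12 h (SE 0.29, adjusted p = 0.0195). Among 7 tested genes of the plasminogen system none was called against normal liver, and Fgg, the gamma chain of fibrinogen, was lower late than early (-0.48, SE 0.15, adjusted p = 0.0486).

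**Figure D4:**
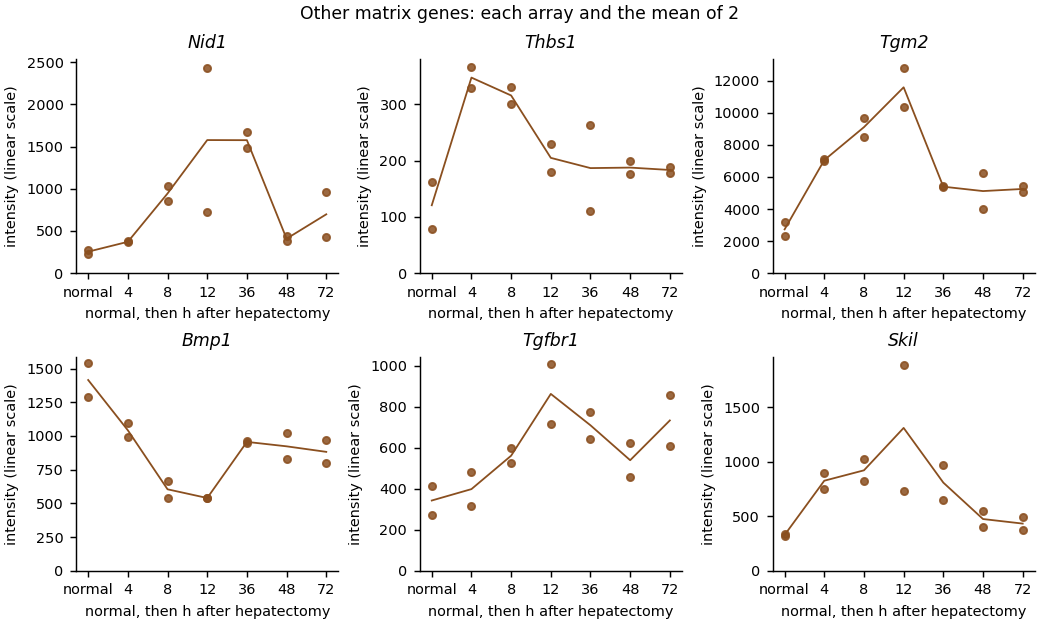
Intensity (linear scale) of 6 genes from the other matrix lists, 1 point per array with a line through the mean of 2, for normal liver and then 4, 8, 12, 36, 48 and 72 h after PHx. Tgm2 reaches 10361.1 and 12827.8 at 12 h, Nid1 is high at 12 and 36 h with a wide spread at 12 h, and Bmp1 is lowest at 8 and 12 h.

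Markers of the cells that make or remodel matrix were summed on each array. For 14 markers of stellate cells and fibroblasts the sum was 9027 to 9224 on the normal arrays, 9744 to 10253 at 4 h, 10533 to 10695 at 8 h, 9062 to 10840 at 12 h, 8397 to 9036 at 36 h, 7659 to 9050 at 48 h, and 8162 to 8812 at 72 h. Of 10 tested, Des was higher at 4 h (1.40, SE 0.32, adjusted p = 0.0402) and 8 h (1.33, adjusted p = 0.0209), and Acta2 at 8 h (1.07, SE 0.30, adjusted p = 0.042). Des, desmin, is also a muscle gene, and the muscle sums were highest at these times. Of all probe sets 1.6% were called higher at 4 h and 4.87% at 8 h. At each of these times 6 of the 10 markers had changes above 0, with medians of 0.10 and 0.17 and lowest changes of -0.41 and -0.25. Late against early 2 of the 10 were called lower, beside 5.96% of all probe sets. Among the defining markers of stellate cells, Lrat was above background on 4 arrays and Hand2 on 0. Endothelial sums (13 markers) were 6034 to 6220 at 4 h, 4734 to 5227 at 8 h, 4666 to 5159 at 12 h and 4796 to 5647 from 36 to 72 h, against 5888 to 6815 on the normal arrays. Of 11 tested, Lyve1 was higher at 12 h (1.82, SE 0.41, adjusted p = 0.0139), beside 5.98% of all probe sets, with no other call against normal liver. At 12 h 5 of the 11 had changes above 0, with a median of -0.17. Late against early 1 endothelial marker was called lower, beside 5.96% of all probe sets.

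Kupffer cell and macrophage sums (11 markers) were 13998.5 to 14289.7 at 4 h, 8455 to 9534 at 8 h and 5373 to 7697 at 12 h. They were 11010 to 11399 at 36 h, 11336 to 12419 at 48 h and 12670 to 13294 at 72 h, against 12814 to 14190 on the normal arrays. The Kupffer cell receptor Clec4f was lower at 8 h (-1.02, SE 0.25, adjusted p = 0.0237) and 12 h (-1.44, adjusted p = 0.00342), as was Csf1r, and Cd5l and Lyz2 were lower at 12 h. Of 11 tested markers 2 were called lower at 8 h and 4 at 12 h, beside 4.72% and 6.22% of all probe sets. At these times 4 and 2 of the 11 had changes above 0. At 36 h 1 marker was called higher, beside 2.28%, and the highest change was 2.04. Late against early 2 were called higher, beside 9.92%. Neutrophil sums (9 markers) were 2249 to 2459 at 4 h, 2627 to 2910 at 8 h, 2361 to 2445 at 12 h, 1373 to 2681 at 36 h, 1281 to 2040 at 48 h and 1576 to 1730 at 72 h, against 865.9 to 1107 on the normal arrays. Neutrophils carry MMP8 and MMP9 in their granules. Adipocyte sums (4 markers) were 1174 to 1243 at 4 h, 2104 to 2203 at 8 h, 1323 to 1972 at 12 h, 1383 to 1390 at 36 h, 1068 to 1304 at 48 h and 886.3 to 1013 at 72 h, against 344.6 to 462.8 on the normal arrays. Of 2 tested adipocyte markers, Fabp4, a fatty acid carrier, was higher at 4, 8, 12 and 36 h (2.38 at 8 h, SE 0.29, adjusted p = 0.000429), and Retn, resistin, at 8, 12, 48 and 72 h (1.68 at 8 h, SE 0.32, adjusted p = 0.00685). The part of these shifts in the results of the matrix genes was not tested.

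**Figure D5:**
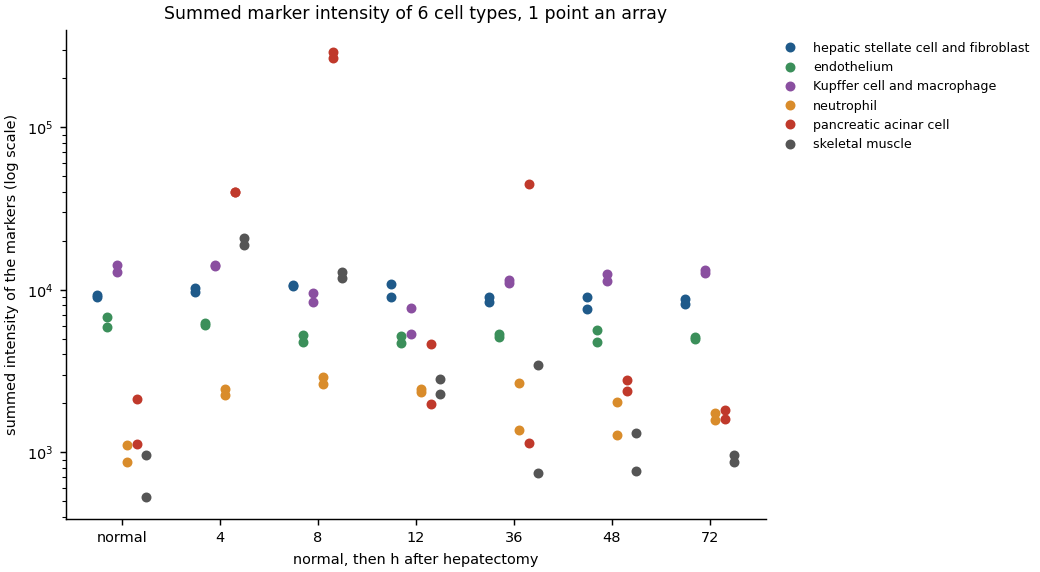
Summed intensity (log scale) of the markers of 6 cell types, 1 point per array, for normal liver and then 4, 8, 12, 36, 48 and 72 h after PHx. The acinar sum reaches 267595 to 288869 at 8 h, the muscle sum is highest at 4 h, and the Kupffer cell sum is lowest at 12 h.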

How the data were processed

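The deposited values are intensities on a linear scale, 1 per probe set and array, with no separate background column, and the authors had scaled the arrays to a common trimmed mean (500.2 to 500.3 after 2% of probe sets were left out at each end). The sources used here do not name the software that made them. The authors selected genes that differed 2-fold with GeneSpring 7.2, per the design text. Of 22690 probe sets, 64 are controls. Symbols came from the array annotation (20380 probe sets with 1 symbol, 691 with several, 1555 with none), and all 92 members were matched to GRCm38.p6 by gene identifier.

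A pseudocount of 57 (25th percentile) was added, log2 taken, and the 13576 probe sets with a mean of at least 128.8 (40th percentile) fitted in limma 3.58.1 (R 4.3.3) with 7 groups, 7 residual and 5.08 prior degrees of freedom. P-values were adjusted by Benjamini-Hochberg over all of them. Precision is limited by having 2 arrays a group. The fit was tested on simulated data. Members and lists were chosen with earlier results of these data known. Genes named with values are every called member, a fixed list of landmark members and up to 4 called genes of each other list. Other settings tried were pseudocounts of 14.25 and 228, quantile normalization, array weights, a filter at the 60th percentile (267.8) or none, an intensity trend in the prior, the replicate number as a block, the 4 arrays of low 5′ signal (ratio under 0.2) as a term or left out, probe sets averaged per gene, only the arrays compared, and each array left out. The fit without the 4 and 8 h arrays was added after the data were seen.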

Additional observations from a re-analysis of the deposited data

How the results depend on the processing

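Of 25 changes of single genes against normal liver, tried under up to 13 settings, the call was kept in 255 of 313 results, and in 283 of 350 results with 1 array left out. None turned its direction. Most of these omissions removed an array of a group outside the comparison, which leaves the change as it was and alters only the shared spread. Most lost calls came from leaving out a normal array or an array of the time itself. The 283 of 350 therefore overstates how well calls held without an array they rest on. Leaving out 1 array moved the genes called over these ranges: 0 to 5, 2 to 12, 4 to 15, 1 to 5, 1 to 6 and 1 to 3 at 4, 8, 12, 36, 48 and 72 h, 5 to 9 over the course and 3 to 8 late against early. Without the 4 arrays of low 5′ signal the counts were 2 at 8 h, 4 at 12 h, 0 at 36 h (9 at an unadjusted p under 0.05 in limma), 1 at 72 h, 3 over the course and 3 late against early. With only the arrays compared they were 4 at 8 h, 1 at 12 h, 0 at 36 h (11 unadjusted), 0 at 48 h (4 unadjusted) and 1 at 72 h. Array weights gave 5 at 12 h, the filter at the 60th percentile 5 at 36 h, and quantile normalization 8 late against early, with a median of all probe sets at 48 h of -0.00 in place of 0.12. Averaging probe sets per gene gave 2 at 48 h, 12 over the course and 9 late against early. Without the 4 and 8 h arrays, a fit added after the data were seen, 1 gene was called at 36 h and 1 at 72 h.

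Same-numbered arrays of different groups deviated together in part: of 21 pairs of groups the correlations ran from -0.19 to 0.53, and 9 were over 0.1. The 4 arrays of low 5′ signal were all replicate 2. Whether the numbers pair the arrays cannot be told from these correlations. With the replicate block the counts were 3, 6, 9, 3, 1 and 2 at the 6 times, 7 over the course and 5 late against early. With 2 arrays a group, calls near the threshold change with single arrays, and the 41 dim members could not be tested. The cause of each change of count was not tested.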
